A study of Mus musculus with 11 samples.

Results

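The comparison described here is between 2 hindlimb muscles of control mice, soleus and quadriceps, at 2.5 months of age. Its members were chosen by title and condition alone: 3 soleus and 2 quadriceps libraries labelled as controls, 5 of the 11 RNA sequencing libraries in the series. The other 6 libraries, 4 of soleus and 2 of quadriceps, are labelled Myc overexpression. Those animals, of the same age, received doxycycline overnight to raise Myc and were sampled 12 hours after its withdrawal. They are used below only as a second, separate set of libraries for the same contrast between muscles. The labels describe the controls as age-matched and do not state their genotype, whether they received doxycycline, the sex of the animals, which promoter drives Myc, or how many animals gave the libraries. The extraction protocol speaks of soleus for all samples, so how quadriceps was handled is not given in the sources used here. The p-values therefore measure the spread between these samples. Each muscle has a table of its own, made separately by the authors, so the table and the muscle cannot be told apart in any value below.

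Soleus is a small postural muscle of the calf, active for long periods at low force. Quadriceps is the large extensor of the knee, used for brief and forceful movement. Muscle fibres contain either slow or fast versions of nearly every contractile protein, and the fibres differ with them in how quickly calcium is released and cleared and in whether ATP comes mainly from mitochondria or from glycolysis. In mice the slow fibres and the oxidative fast fibres are plentiful in soleus, and fibres with the fastest myosin, encoded by Myh4, make up most of the quadriceps.

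Levels are in CPM, each library rescaled to a total of 1000000 over the 12128 genes found in both tables. Estimated depth, in units of 1000000 reads, was 11.1 to 14.9 in the soleus controls and 14.2 and 18.4 in the quadriceps controls. Differences are log2(CPM + 1) in soleus minus quadriceps, so a positive value is higher in soleus. They were tested with limma over 12078 genes with Benjamini-Hochberg adjustment, and a gene is called at an adjusted p under 0.05. With 3 libraries against 2, an exact permutation test on ranks cannot go below a two-sided p of 0.2. A call therefore rests on the test that shares information across all genes.

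Libraries within a group were not alike. Quadriceps control 2 held far more slow-fibre transcripts than quadriceps control 1. The 6 genes that define slow fibres (Myh7, Tnnc1, Tnni1, Tnnt1, Myl2 and Myl3) stood at 26.2% to 29.9% of the mean of the soleus controls in quadriceps control 2, and at 3.22% to 3.93% in quadriceps control 1. In the Myc-labelled quadriceps libraries the same 6 genes reached at most 0.859% of the mean of the Myc-labelled soleus libraries. Soleus control 2 held liver transcripts: a list of 21 liver genes, put together after seeing the data, summed to 2893.0 CPM there, against 8.06 and 12.8 CPM in soleus controls 1 and 3 and 55.1 and 238.0 CPM in quadriceps controls 1 and 2. Albumin (Alb) alone stood at 1292.7 CPM in soleus control 2. The 18S ribosomal RNA entry (Rn18s) took 0.296% to 0.324% of the soleus controls and 3.12% and 4.32% of the quadriceps controls. Myc itself stood at 2.29, 4.16 and 2.17 CPM in soleus and 6.9 and 3.65 CPM in quadriceps, groups that overlap (log2 difference -0.68, SE 0.35, adjusted p = 0.16).

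Across the transcriptome, 3131 genes were higher in soleus, 25.9% of those tested, and 974 were higher in quadriceps, 8.06%. That imbalance depended on the scaling. The median log2 difference of all genes was 0.28 under CPM, where 76.3% of calls were higher in soleus. Under median-ratio scaling, which sets that median to 0.000, 1544 genes (12.8%) were higher in soleus and 1743 (14.4%) in quadriceps, and 47% of calls were higher in soleus. All 1544 of those soleus genes and all 974 quadriceps genes called under CPM were called in both scalings. Median-ratio scaling moves the differences by a similar amount towards quadriceps, so this nesting is largely fixed in advance. A quadriceps call kept under it is therefore no separate support. At least 8-fold differences were called in 7 genes in soleus and in 26 in quadriceps. Called or not, 23 genes were at least 8-fold higher in soleus and 27 in quadriceps, with no overlap between the libraries of the 2 muscles in any of them. Most of the soleus genes of that size thus missed the call. The 3 soleus and 2 quadriceps values did not overlap in 5558 genes higher in soleus (46%) and in 1834 higher in quadriceps (15.2%). Leaving out quadriceps control 1 gave 1427 (11.8%) and 495 (4.11%) called genes. Leaving out quadriceps control 2 gave 3082 (25.7%) and 884 (7.38%). Leaving out 1 soleus library gave 18% to 22.2% and 6.14% to 7.31%. Counts for a gene list, with all libraries or without 1, are to be read against the shares of all genes in the same setting.

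**Figure D1:**
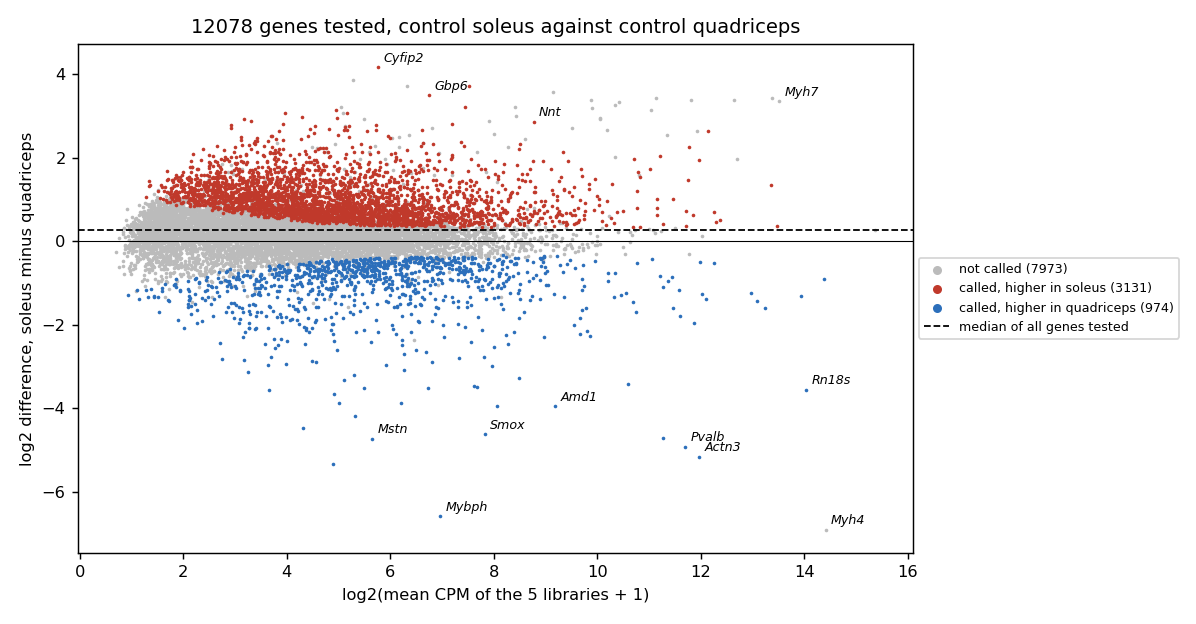
Each point is 1 of the 12078 genes tested. The x axis is log2(mean CPM of the 5 control libraries + 1), the y axis the log2 difference, soleus minus quadriceps, and the dashed line the median of all genes. The 3131 genes called higher in soleus reach up to Cyfip2 at 4.17, and the 974 called higher in quadriceps reach down to Mybph at -6.58.

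The slow contractile genes were far more abundant in soleus, and yet most of them were not called. Myh7, the slow myosin heavy chain, stood at 18441.6, 19694.8 and 14864.1 CPM in the soleus controls and at 590.4 and 4987.2 CPM in the quadriceps controls. The 2 quadriceps libraries differ by far more than the 3 soleus libraries do, and neither reaches the soleus range. The log2 difference was 3.35 (SE 1.12, adjusted p = 0.12). In bulk tissue, fewer fibres of a type and less RNA per fibre cannot be told apart.

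The slow thin-filament and light-chain genes followed the same order of libraries. Tnnc1, the calcium-binding troponin C of slow fibres, stood at 2020.8, 2039.7 and 1823.6 CPM in soleus and at 73 and 567.1 CPM in quadriceps (log2 difference 3.26, adjusted p = 0.11). Myl2, the slow regulatory light chain, stood at 3636.7, 3487.3 and 3148.4 against 112.0 and 895.7 CPM (3.43, adjusted p = 0.1). Myl3, the slow essential light chain, and the slow tropomyosin Tpm3 had log2 differences of 3.38 and 3.14, with adjusted p = 0.11 for each. Of the 6 defining slow genes, with differences of 3.20 to 3.43, 0 were called by limma or by limma-voom, and 3 had an unadjusted p under 0.05. All 6 were called once quadriceps control 2 was left out, with a median log2 difference of 4.91, and all 6 were called once quadriceps control 1 was left out, with a median of 1.80. Without both quadriceps control 2 and soleus control 2 the count was again 6 of 6, with a median of 4.86. A fit that leaves 1 quadriceps library assumes that this library varies as the soleus libraries do. In the Myc-labelled libraries 6 of 6 were called, with a median of 8.91.

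**Figure D2:**
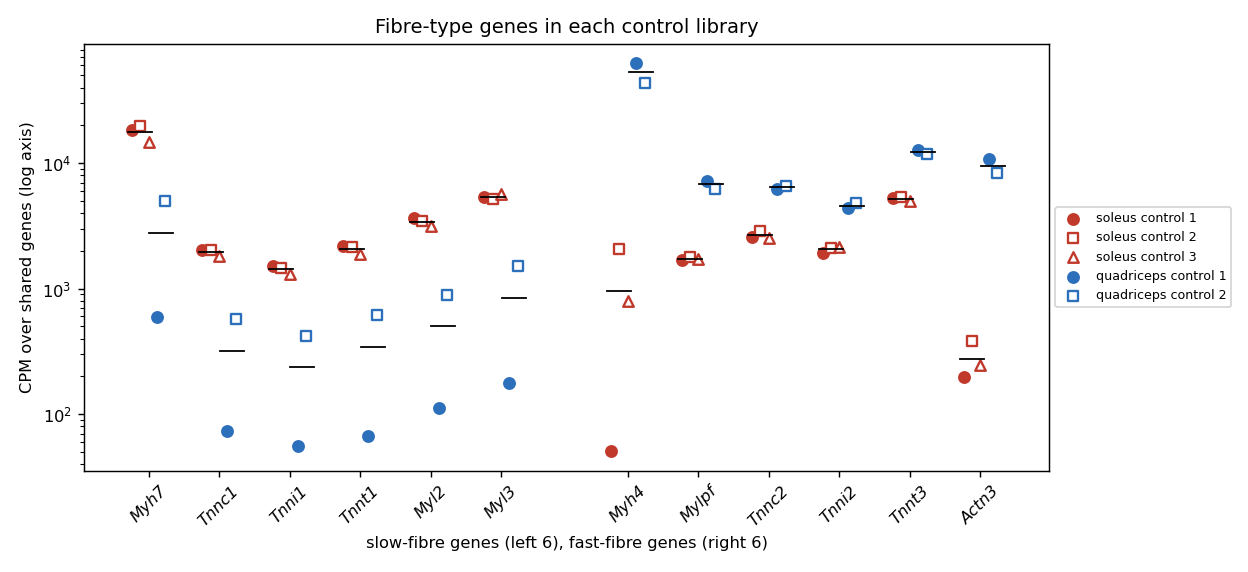
Level of 6 slow-fibre and 6 fast-fibre genes in each control library, in CPM on a log axis. Soleus is red, quadriceps blue, and short lines are group means. Quadriceps control 2 lies between quadriceps control 1 and soleus for each slow gene, and Myh4 ranges from 50.6 to 2053.4 CPM among the soleus libraries.

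Of the 18 genes listed as slow sarcomere genes, 2 were called higher in soleus and 2 higher in quadriceps, and the median log2 difference was 3.17 against 0.28 over all genes. Mybpc1, the slow myosin-binding protein C, was called and varied little within soleus: 5642.3, 5667.0 and 5543.0 CPM against 1038.2 and 2025.5 CPM (log2 difference 1.95, SE 0.27, adjusted p = 0.003). Actn2, the alpha-actinin shared by slow and fast fibres and the heart, stood at 6935.5, 6687.3 and 6427.1 against 642.7 and 1758.2 CPM (2.65, adjusted p = 0.022), a call lost without soleus control 1 or 3. The 2 members called in the other direction were Mybph and Smtnl2. Mybph, which encodes myosin-binding protein H, was almost absent from soleus, at 1.55, 1.56 and 2.17 CPM, and stood at 469.1 and 145.2 CPM in quadriceps. Its log2 difference of -6.58 (SE 0.51, adjusted p = 0.00096) was the widest among the called genes named by rule. Smtnl2, a smoothelin-like gene, stood at 46.4 to 81.7 CPM in soleus and at 467.9 and 450.7 CPM in quadriceps (-2.77, adjusted p = 0.00032).

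Most of the fast contractile genes were called, and the 2 quadriceps libraries lay close together for them. Of 16 listed, 12 were called higher in quadriceps and 2 higher in soleus, with a median log2 difference of -1.59. Actn3, the alpha-actinin of fast fibres, stood at 198.6, 384.3 and 243.9 CPM in soleus and at 10831.5 and 8276.8 CPM in quadriceps (log2 difference -5.15, SE 0.30, adjusted p = 0.00022). Mybpc2, the fast myosin-binding protein C, stood at 171.9, 251.0 and 249.2 against 6725.1 and 4909.8 CPM (-4.70, adjusted p = 1.4e-05). Fast troponin and light-chain genes were less far apart. Mylpf, the fast regulatory light chain, stood at 1678.8 to 1791.9 CPM in soleus and at 7248.4 and 6270.6 CPM in quadriceps (-1.96, adjusted p = 1.6e-05). The fast troponins Tnnt3, Tnnc2 and Tnni2 had differences of -1.23, -1.27 and -1.16, each called.

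The fast myosin heavy chains did not move together. Myh4, the fastest, stood at 62359.9 and 43860.5 CPM in the quadriceps controls and at 50.6, 2053.4 and 792.5 CPM in the soleus controls. The soleus libraries thus spanned a wide range, from 0.0953% to 3.87% of the mean in quadriceps. With that spread the log2 difference of -6.90 (SE 2.00) had an adjusted p of 0.091 and was not called. Myh1, which encodes the 2X heavy chain, stood at 6189.4, 5186.2 and 6655.3 CPM in soleus against 4606.5 and 3851.0 CPM in quadriceps (0.51, adjusted p = 0.024). Its call was lost under median-ratio scaling (log2 difference 0.20) and without quadriceps control 2, soleus control 1 or soleus control 3. Myh2, the 2A heavy chain of oxidative fast fibres, was looked up after its values were seen: it stood at 16118.6, 16895.5 and 14839.6 CPM in soleus and at 470.3 and 4613.3 CPM in quadriceps (3.43, adjusted p = 0.12). Lmod3, an actin nucleator, was the other listed fast gene called in soleus (0.95, adjusted p = 0.025), a call lost without any 1 of the soleus libraries.

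Ratios of paired genes within a library depend little on the scaling where both genes are well above 1 CPM. In 22 pairs of slow or oxidative genes and their fast or glycolytic counterparts, the log2 ratio was taken in each library with 1 CPM added to both genes. The ratio of 2 genes is not a ratio of their amounts, because read numbers grow with transcript length, but it can be set side by side across libraries. In 20 of the 22 pairs each soleus library had a higher ratio than each quadriceps library. Single genes did not overlap in 46% of all genes, higher in soleus, and in 15.2%, higher in quadriceps. The pairs were picked as known counterparts, and no share was taken over other pairs of genes. They are not all separate, because Pln and Sln were both set against Mrln. For Myh7 over Myh4 the log2 ratio was 8.48, 3.26 and 4.23 in soleus and -6.72 and -3.14 in quadriceps. For Actn2 over Actn3 it was 5.12, 4.12 and 4.71 against -4.07 and -2.23, and for Mybpc1 over Mybpc2 5.03, 4.49 and 4.47 against -2.69 and -1.28. Quadriceps control 2 lay nearer to soleus in each of these. The 2 pairs whose libraries overlapped were both subunits of cytochrome c oxidase, Cox7a2 over Cox7a1 (difference of means 0.27) and Cox6a1 over Cox6a2 (-0.08).

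**Figure D3:**
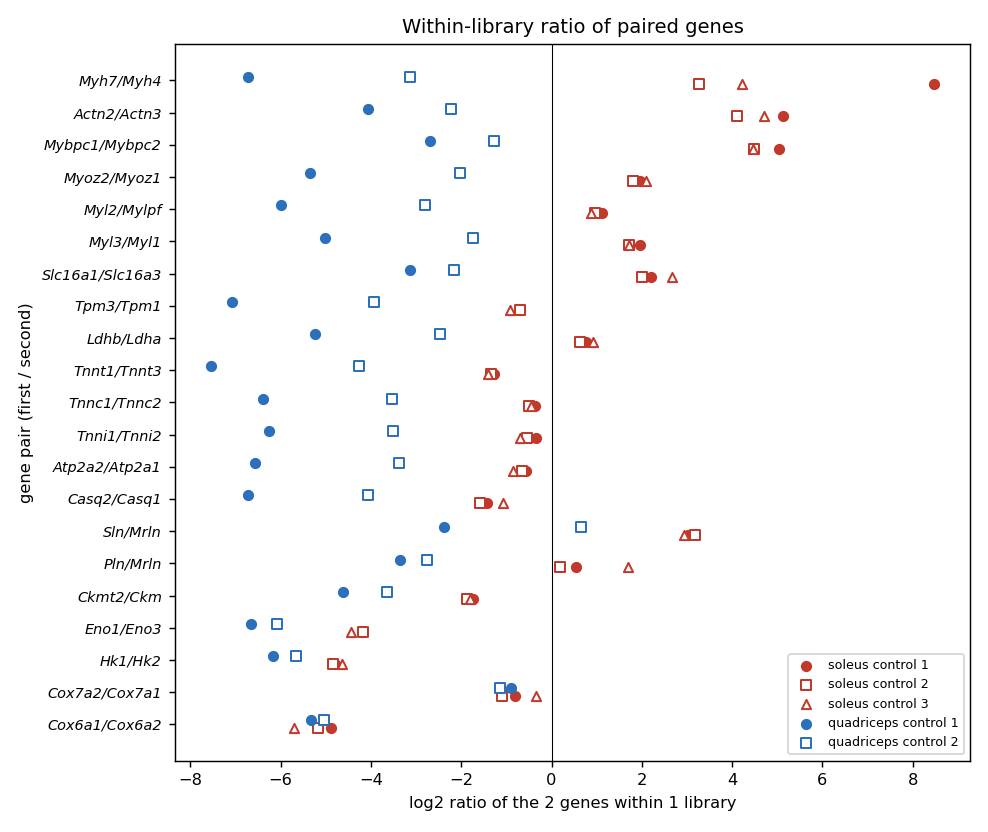
Log2 ratio of 21 of the gene pairs within each control library, with 1 CPM added to each gene. Red marks are soleus, blue marks quadriceps. In 19 of them the red marks lie right of the blue ones, and the 2 cytochrome c oxidase pairs at the bottom overlap.

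Promoters of 4 genes are shown because each gene stands for a group of the results: slow contraction, fast calcium buffering, polyamines and growth control. They were chosen after the values were seen. They are the 250 bases before the RefSeq start (GRCm38.p6), 5′ to 3′ on the gene's strand. Capitals mark matches to the E box, CANNTG, and, in Pvalb, the match to the MEF2 site. Both strands were searched, and no printed matches overlap. Tnnc1 had its higher level in soleus and was not called (adjusted p = 0.11). The other promoters belong to genes called higher in quadriceps: Pvalb (parvalbumin), Smox (spermine oxidase) and Mstn (myostatin).
Tnnc1, chr14:31208062-31208311, plus strand: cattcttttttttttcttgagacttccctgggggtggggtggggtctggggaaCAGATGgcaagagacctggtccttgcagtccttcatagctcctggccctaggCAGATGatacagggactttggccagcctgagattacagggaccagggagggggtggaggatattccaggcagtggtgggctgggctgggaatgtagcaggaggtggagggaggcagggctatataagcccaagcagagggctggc
Pvalb, the outer of 2 listed starts, chr15:78206401-78206650, minus strand: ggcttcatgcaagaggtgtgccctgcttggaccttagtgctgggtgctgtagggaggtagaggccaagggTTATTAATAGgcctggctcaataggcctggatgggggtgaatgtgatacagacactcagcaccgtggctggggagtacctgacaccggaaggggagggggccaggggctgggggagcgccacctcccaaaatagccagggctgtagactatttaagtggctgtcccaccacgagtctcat
Smox, chr2:131491612-131491861, plus strand: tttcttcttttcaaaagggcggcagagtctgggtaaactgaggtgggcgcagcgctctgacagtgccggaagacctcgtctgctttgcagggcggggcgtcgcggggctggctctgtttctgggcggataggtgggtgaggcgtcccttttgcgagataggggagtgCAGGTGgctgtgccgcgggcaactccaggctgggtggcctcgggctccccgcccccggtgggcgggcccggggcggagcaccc
Mstn, chr1:53061390-53061639, plus strand: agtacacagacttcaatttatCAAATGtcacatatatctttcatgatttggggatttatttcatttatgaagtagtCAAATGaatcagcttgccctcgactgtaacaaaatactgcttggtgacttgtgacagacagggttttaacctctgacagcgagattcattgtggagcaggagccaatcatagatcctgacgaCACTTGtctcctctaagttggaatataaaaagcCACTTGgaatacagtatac
Tnnc1 held 2 E boxes, Smox 1 and Mstn 4, and Pvalb held 1 MEF2 match and no E box in this window. The window at the other listed Pvalb start, not printed, held 1 E box and no MEF2 match. In the shares below, a gene counts if any of its listed promoters holds the match. These letters are common: 61.8% of the 9631 tested genes with a listed promoter held an E box, and 2.27% held a MEF2 match. Among slow sarcomere genes 17 of 18 held an E box, and among the 8 of 16 fast sarcomere genes with a listed promoter 6 did. The share was 62.3% among genes called higher in quadriceps and 62.3% among those called higher in soleus. A match describes the letters only.

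Calcium handling was weighted towards quadriceps. Of 36 genes tested, 20 were called higher in quadriceps and 4 higher in soleus (21 and 2 under median-ratio scaling), against 8.06% and 25.9% of all genes, with a median log2 difference of -0.40. Parvalbumin (Pvalb), the soluble calcium buffer that speeds relaxation, stood at 221.1, 373.4 and 206.4 CPM in soleus and at 9190.3 and 6563.9 CPM in quadriceps (log2 difference -4.91, SE 0.30, adjusted p = 0.00027). Both quadriceps libraries were far above the 3 soleus libraries. The kinase Camk2a (-2.25), calmodulin gene Calm3 (-1.61) and Ppp1r3a (-1.68), which anchors a phosphatase to glycogen and the calcium store, were also called. So were the fast calcium pump Atp2a1, at 15529.8 to 16069.3 CPM in soleus and 34837.7 and 25039.5 CPM in quadriceps (-0.91, adjusted p = 0.0018), and the fast calsequestrin Casq1 (-1.45).

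Genes of slow calcium handling pointed to soleus, with the spread already seen for slow myosin. Atp2a2, the slow and cardiac calcium pump, stood at 10452.9, 9926.2 and 8938.9 CPM in soleus and at 363.4 and 2405.1 CPM in quadriceps (log2 difference 3.38, adjusted p = 0.089). Phospholamban (Pln), which inhibits that pump, stood at 15.4, 10.4 and 39.7 against 2.32 and 2.99 CPM (2.43, adjusted p = 0.019), a call lost without either quadriceps library or soleus control 1. Sarcolipin (Sln), another pump inhibitor, stood at 90.4, 89.3 and 95.4 against 5.49 and 41.6 CPM and was not called (2.48, adjusted p = 0.15). Myoregulin (Mrln), the inhibitor known from fast fibres, was called in the other direction, at 10.2, 8.99 and 11.6 against 33 and 26.1 CPM (-1.44, adjusted p = 0.00072). The calcium-binding protein S100a1 was higher in soleus (1.07, adjusted p = 0.0078), and Camk2b (0.66) and Stim1 (0.58) were called under CPM and not under median-ratio scaling.

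Glycolysis was weighted towards quadriceps. Of 30 genes tested, 18 were called higher in quadriceps and 8 in soleus (18 and 4 under median-ratio scaling, 15 and 4 without quadriceps control 1, 16 and 5 without soleus control 1), with a median log2 difference of -0.94. Slc16a3, the transporter that exports lactate, stood at 43.9, 42 and 29.5 CPM in soleus and at 475.2 and 381.6 CPM in quadriceps (-3.45, SE 0.19, adjusted p = 1.4e-05). Both glycerol-3-phosphate dehydrogenases, which shuttle reducing equivalents from glycolysis to mitochondria, were called: cytosolic Gpd1 at -3.26 (65.4 to 91.2 CPM against 857.9 and 684.2) and mitochondrial Gpd2 at -2.88 (26.4 to 33.7 against 289.0 and 177.1). Ldha, which makes lactate from pyruvate, stood at 854.9, 916.4 and 959.4 against 3185.5 and 2710.2 CPM (-1.69, adjusted p = 4.7e-05), and the muscle enolase Eno3 differed by -1.59.

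The 8 of 30 glycolysis members called in soleus were near the share of all genes, 25.9%. The 18 called in quadriceps were well above theirs, 8.06%. Those in soleus included genes of glucose entry and of the control of pyruvate oxidation. Hk1, a hexokinase, was called at 1.5 and the glucose transporter Slc2a1 at 1.15. The pyruvate dehydrogenase kinases Pdk1 and Pdk2 were called at 0.98 and 0.62, Pdk2 not under median-ratio scaling. Ldhb, the lactate dehydrogenase subunit of oxidative tissue, stood at 1460.7, 1427.9 and 1813.7 CPM in soleus and at 82.5 and 489.4 CPM in quadriceps (2.95, adjusted p = 0.1). Slc16a1, the transporter that takes lactate up, stood at 206.3, 170.6 and 194.6 against 53 and 85.3 CPM and was called (1.48, adjusted p = 0.00091).

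Glycogen genes were called in both directions. Of 19 tested, 10 were called higher in quadriceps and 4 in soleus, against 8.06% and 25.9% of all genes. Median-ratio scaling gave 10 and 2, against 14.4% and 12.8%. The soleus calls were thus no more frequent than over all genes. Those in quadriceps included genes used in glycogen breakdown: the phosphorylase kinase subunits Phkg1 (98, 124.1 and 103.3 CPM against 728.0 and 492.5; log2 difference -2.46) and Phkb (-2.18), and the phosphoglucomutase Pgm1 (-1.84). The 4 called in soleus all belong to glycogen synthesis: the synthase Gys1 (1069.1, 1019.1 and 1122.0 CPM against 528.6 and 610.8; 0.91, adjusted p = 0.00075), the branching enzyme Gbe1 (1.31), the primer glycogenin Gyg (0.65) and Ugp2 (0.39). Gyg and Ugp2 were not called under median-ratio scaling, and the call of Ugp2 was lost without any 1 of the 5 libraries.

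Fatty acid uptake and oxidation was weighted towards soleus. Of 42 genes tested, 31 were called higher in soleus and 1 in quadriceps, and 26 and 1 under median-ratio scaling; the median log2 difference was 1.14. Cd36, which takes up fatty acids, stood at 1255.0, 953.4 and 1193.7 CPM in soleus and at 277.2 and 416.5 CPM in quadriceps (1.73, SE 0.19, adjusted p = 0.00044). Cpt1b, which commits fatty acids to mitochondria, stood at 877.9, 791.4 and 882.9 against 312.9 and 425.1 CPM (1.22, adjusted p = 0.00044). The carnitine carrier Slc25a20 and the dienoyl-CoA reductase Decr1 followed at 1.19 and 1.09. The 1 gene called in quadriceps was Acsl3, an acyl-CoA synthetase, at 17.9, 31.6 and 24.4 against 48 and 53.1 CPM (-1.04, adjusted p = 0.0064). Cd36 is also a gene of capillary endothelium, whose markers moved in the same direction as described below, and their part in its difference was not tested.

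The citric acid cycle and the respiratory chain were also higher in soleus, with smaller differences. Of 20 cycle genes 13 were called higher in soleus and 0 in quadriceps, and of 81 nuclear-encoded respiratory chain and ATP synthase subunits 53 and 0, each list with a median log2 difference of 0.55. In quadriceps 0 genes of either list had an unadjusted p under 0.05, and 0 were called by limma-voom. The median of all genes was 0.28, and under median-ratio scaling the soleus counts were 4 of 20 and 11 of 81, where the share of all genes was 12.8%. The respiratory chain count was 15 without quadriceps control 1 (median 0.35), 33 without soleus control 1 and 34 without soleus control 2. Ogdh, of the oxoglutarate dehydrogenase complex, stood at 2260.3, 2039.2 and 2480.8 CPM against 951.8 and 1002.3 (1.20, adjusted p = 0.00022). The complex II subunits Sdhc and Sdhb differed by 0.84 and 0.85, and the cytochrome c oxidase subunit Cox7a2 by 1.06, all 3 called in both scalings. Citrate synthase (Cs), often used as a measure of mitochondrial content, stood at 1528.6, 1452.6 and 1757.8 against 930.8 and 999.9 CPM (0.71, adjusted p = 0.0031) and was not called under median-ratio scaling. Ketone use was represented by Oxct1 (1.0) and Acat1 (1.19), both called higher in soleus.

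**Figure D4:**
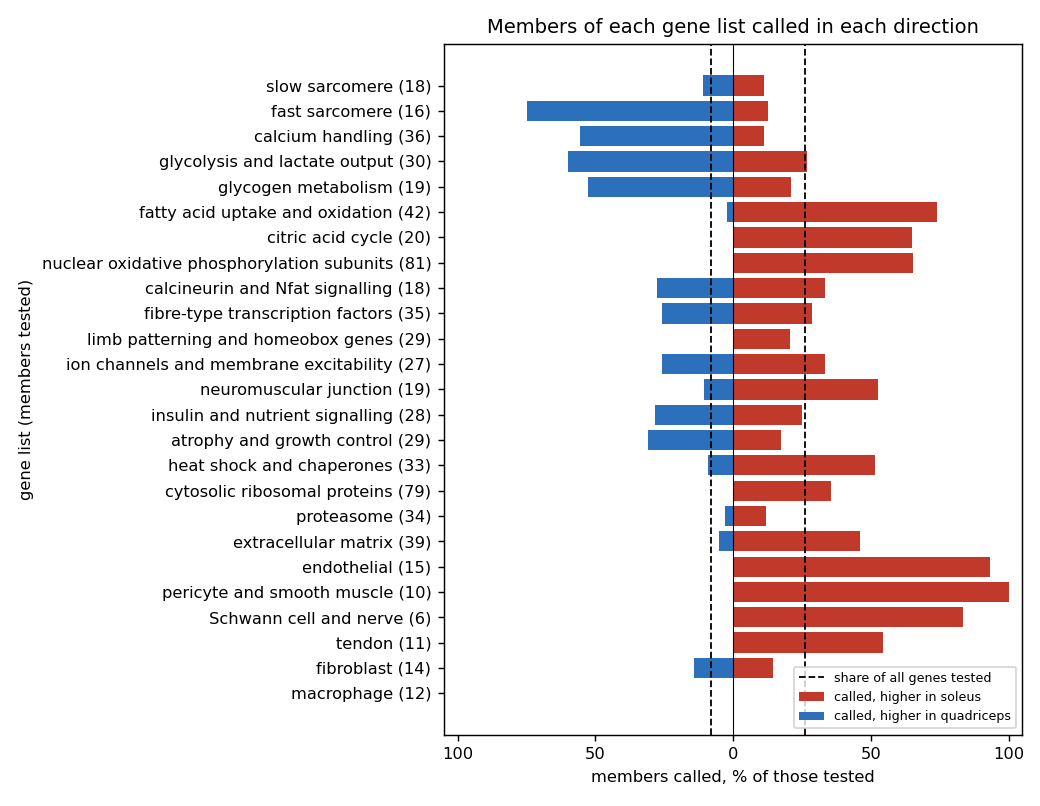
Share of each gene list called higher in soleus (right) or higher in quadriceps (left), in percent of the members tested, whose number stands after each name. Dashed lines are the shares of all genes, 25.9% and 8.06%. Glycolysis and calcium handling extend left, fatty acid oxidation and the vascular lists extend right, and only 2 of 18 slow sarcomere genes are called in each direction.

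Phosphagen and energy sensing differed by isoform. Muscle creatine kinase (Ckm), which rebuilds ATP from phosphocreatine, stood at 8939.0, 9820.1 and 10818.3 CPM in soleus and at 25360.4 and 23348.1 CPM in quadriceps (log2 difference -1.31, adjusted p = 0.00014). Its mitochondrial counterpart Ckmt2 was called in soleus (1.02, adjusted p = 0.017), a call lost without soleus control 3. Of the AMP deaminases, Ampd1 was higher in quadriceps (-1.25) and Ampd3 in soleus, at 101.2, 89.7 and 88.8 against 11 and 23.1 CPM (2.47, adjusted p = 0.0012).

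Among 28 genes of insulin and nutrient signalling 8 were called higher in quadriceps and 7 in soleus, against 8.06% and 25.9% of all genes. Only the quadriceps count was thus above the share of all genes. Median-ratio scaling gave 11 and 3, against 14.4% and 12.8%, and the median turned from 0.05 to -0.26. The soleus count was 3 without quadriceps control 1 and 4 without soleus control 1, and the quadriceps count 5 without soleus control 1 or 3. The quadriceps genes included subunits of AMP-activated protein kinase, the cell's sensor of low energy: Prkab2 at 62.7, 68.2 and 62.2 CPM in soleus and 643.8 and 412.9 CPM in quadriceps (-2.98, adjusted p = 1.6e-05), Prkag3 at 12.6, 17.7 and 15.7 against 139.6 and 110.8 CPM (-2.95, adjusted p = 1.4e-05), and the catalytic subunit Prkaa2 (-1.05). The regulatory subunit Prkag1 went the other way (0.53), a call lost without quadriceps control 1 and under median-ratio scaling. Deptor, an inhibitor of mTOR, stood at 21.8, 32.2 and 31.9 against 206.2 and 152.8 CPM (-2.61, adjusted p = 8.3e-05). The kinase Akt1 was called in soleus at 1.06.

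Transcription factors tied to fibre type were called in both directions: 10 of 35 in soleus and 9 in quadriceps, against 25.9% and 8.06% of all genes. Median-ratio scaling gave 5 and 11, against 12.8% and 14.4%, and the median of the list turned from 0.22 to -0.08. Without soleus control 1 the soleus count was 5. Sox6, a repressor of slow genes, stood at 60.3, 57.5 and 56.1 CPM in soleus and at 246.4 and 157.4 CPM in quadriceps (-1.75, SE 0.18, adjusted p = 0.00021). Mafa, of the large Maf family known for the Myh4 programme, stood at 12.8, 17.2 and 22.7 against 108.4 and 82.3 CPM (-2.40, adjusted p = 0.00025). Eya4 (-2.21), a cofactor of homeobox proteins, and the nuclear receptor Rora (-1.99) were also called. For each of these genes the 3 soleus values lay below both quadriceps values.

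On the soleus side Perm1, a regulator of mitochondrial genes, stood at 1017.1, 670.3 and 782.8 CPM against 265.6 and 333.0 (1.44, SE 0.19, adjusted p = 0.00075). Esrrb, an orphan nuclear receptor, stood at 82, 68.2 and 84.3 against 5 and 21 CPM (2.78, adjusted p = 0.043), a call lost without any 1 of the soleus libraries and under median-ratio scaling. Nfix (0.69), Eya3 (0.76) and Tead1 (0.49) were called under CPM and not under median-ratio scaling, and Tead1 not without quadriceps control 1 or soleus control 1. Of 29 limb patterning and homeobox genes, 6 were called in soleus and 0 in quadriceps, against 25.9% and 8.06% of all genes. In quadriceps 2 had an unadjusted p under 0.05 and 0 were called by limma-voom. Under median-ratio scaling 5 and 4 were called, against 12.8% and 14.4%. The soleus calls were thus not more frequent than over all genes under CPM. The soleus genes included Tbx4 (1.25) and Hoxc11 (1.12), genes of hindlimb identity, and both calls were lost without quadriceps control 1.

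Calcineurin, the calcium-activated phosphatase known for promoting the slow programme through Nfat factors, was split. Its catalytic subunits Ppp3ca (-0.90) and Ppp3cb (-1.10) and its regulatory subunit Ppp3r1 (-0.85) were higher in quadriceps: Ppp3ca stood at 181.1, 161.6 and 155.8 CPM in soleus and at 346.8 and 275.7 CPM in quadriceps. Rcan2, an inhibitor of calcineurin, was higher in soleus, at 327.8, 319.5 and 303.7 against 78.6 and 147.9 CPM (1.55, adjusted p = 0.004), as was Cabin1 (1.0), another inhibitor. The list as a whole had 6 of 18 called in soleus and 5 in quadriceps, against 25.9% and 8.06% of all genes. Median-ratio scaling gave 3 and 5, against 12.8% and 14.4%. Mef2a was higher in quadriceps (-0.69) and Mef2d in soleus (0.55), Mef2d not under median-ratio scaling.

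Growth control was led by myostatin. Mstn, the secreted inhibitor of muscle growth, stood at 2.36, 3.64 and 4.7 CPM in soleus and at 139.8 and 96.6 CPM in quadriceps (log2 difference -4.72, SE 0.26, adjusted p = 1.3e-05). Its close relative Gdf11 (-1.70) and the type I activin receptor Acvr1b (-1.11), through which such ligands signal, were also higher in quadriceps. Follistatin (Fst), which binds and blocks myostatin, stood at 12.2, 12.7 and 6.5 against 1.55 and 4.74 CPM (1.53, adjusted p = 0.02), a call lost without quadriceps control 1 or soleus controls 1 or 2. Over the 29 atrophy and growth genes, 9 were called in quadriceps and 5 in soleus, against 8.06% and 25.9% of all genes. Median-ratio scaling gave 13 and 3, against 14.4% and 12.8%, and the median turned from 0.10 to -0.21. The soleus count was 2 without quadriceps control 1 or soleus control 1 and 3 without soleus control 3. Cdkn1a, a cell cycle inhibitor, was higher in soleus (1.45), and Igfbp5 in quadriceps (-1.41).

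Polyamine genes were among the strongest on the quadriceps side. Smox, which oxidises spermine, stood at 16.3, 27.3 and 19.7 CPM in soleus and at 572.4 and 491.8 CPM in quadriceps (-4.62, SE 0.20, adjusted p = 9.3e-06). Amd1, the decarboxylase that supplies the aminopropyl group for spermidine and spermine, stood at 84.3, 90.2 and 75 against 1656.0 and 1009.6 CPM (-3.95, SE 0.20, adjusted p = 1.8e-05). Its near-identical copy Amd2 had the same difference, and the split of reads between the 2 is uncertain. The other polyamine genes were looked up after these values were seen. Odc1, the first enzyme of the pathway, and spermine synthase Sms were called in quadriceps (-1.56 and -1.49), and spermidine synthase Srm (0.43, adjusted p = 0.15), Sat1 (0.43, adjusted p = 0.19) and Paox (0.56, adjusted p = 0.16) were not called.

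The remaining genes with the widest called differences in quadriceps ranged from -3.55 to -4.47. They included Pdpr, the regulatory subunit of pyruvate dehydrogenase phosphatase, at 3.1, 4.75 and 4.61 CPM in soleus and 94.6 and 86.4 CPM in quadriceps (-4.17, adjusted p = 9.3e-06), Odf3l2 (-4.47), the calcium- and integrin-binding Cib2 (-3.88), the tetraspanin Tspan8 (-3.87) and Mss51 (-3.55), a gene known from glycolytic muscle. Rn18s also belonged to them (-3.55). The pseudogene Hmga2-ps1 (-3.66) can share reads with its parent gene, and its call was lost without soleus control 1. Of the 15 widest quadriceps genes 14 kept their call without each library in turn, all 15 were called under median-ratio scaling, and all 15 were called in the Myc-labelled libraries.

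The 15 widest called genes in soleus ranged from 2.78 to 4.17, and 8 of them kept their call without each library in turn. Cyfip2, a component of the WAVE complex that drives actin branching, stood at 79.1, 71.4 and 108.8 CPM in soleus and at 1.69 and 7.46 CPM in quadriceps (4.17, SE 0.57, adjusted p = 0.0092). Gbp6, an interferon-inducible GTPase with close paralogs that could share its reads, stood at 199.2, 133.2 and 168.3 against 8.44 and 21.9 CPM (3.50, adjusted p = 0.0065). Lrrc52 (3.07), Tecrl (2.93), Mamdc2 (2.88) and the fibrillar collagen chain Col11a2 (2.80) kept their calls too. Myh6, the alpha cardiac myosin also found in muscle spindles, stood at 31, 28.2 and 27.7 against 1.34 and 5.26 CPM (2.97, adjusted p = 0.0017). Mhrt (2.79) is a non-coding RNA that overlaps Myh7 on the other strand, and whether strand was used in counting is not given in the sources used here, so the 2 genes cannot be told apart.

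The other 7 lost their call without at least 1 library. Nnt, the mitochondrial transhydrogenase that makes NADPH, stood at 787.5, 347.8 and 870.6 CPM in soleus and at 71 and 100.9 CPM in quadriceps (2.86, adjusted p = 0.022), a call lost without either quadriceps library or soleus control 1. Fxyd6 (3.21), a modulator of the sodium pump, and Pcp4l1 (3.71) lost theirs without any 1 of the soleus libraries, as Esrrb did. Prune2 (3.08) lost its call without quadriceps control 1 or any 1 soleus library, Depp1 (2.96) without quadriceps control 1 or soleus controls 1 or 2, and the phosphatase Dusp18 (2.81) without quadriceps control 1 or soleus controls 1 or 3. All 15 were called higher in soleus in the Myc-labelled libraries, and 11 under median-ratio scaling.

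Markers of blood vessels were higher in soleus. Of 15 endothelial markers 14 were called in soleus and 0 in quadriceps, and 13 and 0 under median-ratio scaling, with a median log2 difference of 1.35. In quadriceps, 0 markers of the vascular, nerve and tendon lists had an unadjusted p under 0.05 or were called by limma-voom. Their summed level was 1041.8 to 1239.2 CPM in the soleus controls and 455.0 and 496.0 CPM in the quadriceps controls, and no marker was at 0 in any control library. Pecam1, an adhesion protein of endothelium, stood at 160.1, 155.1 and 147.5 against 59.3 and 59.9 CPM (1.36, SE 0.12, adjusted p = 8.7e-05), and the growth factor receptor Kdr at 64.6, 60.2 and 79.8 against 24.6 and 24.2 CPM (1.43). Both quadriceps libraries were alike for these genes, unlike for the slow-fibre genes.

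All 10 pericyte and smooth muscle markers were called in soleus (8 under median-ratio scaling), with a median of 1.69. They summed to 6332.7 to 7172.4 CPM in soleus and to 3908.8 and 4992.6 CPM in quadriceps, of which desmin (Des), a gene of the muscle fibres themselves named after its values were seen, made up 5282.9 to 6077.0 CPM and 3572.8 and 4600.5 CPM. The call of Des (0.47) was lost without quadriceps control 1 or soleus controls 1 or 2. Acta2, smooth muscle actin, stood at 80, 66.3 and 91.1 against 11.2 and 11.8 CPM (2.67, SE 0.16, adjusted p = 1.5e-05), and Myh11, smooth muscle myosin, at 66.4, 59.4 and 85.2 against 12 and 15.8 CPM (2.25). Globin genes were higher too, with Hba-a2 at 253.9, 260.4 and 215.7 against 52 and 40.3 CPM (2.38, adjusted p = 1.6e-05). Its near-identical copy Hba-a1 had a difference of 2.03.

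Nerve and tendon markers were higher in soleus as well. Of 6 Schwann cell and nerve markers measured, 5 were called in soleus and 0 in quadriceps, with sums of 154.7 to 228.6 CPM against 53.9 and 68.1 CPM. Without quadriceps control 1 the count was 3. Mbp, a myelin protein, stood at 29.2, 45.1 and 37.2 against 5.49 and 8.82 CPM (2.24, adjusted p = 0.00024), and Pmp22 and Prx differed by 1.58 and 1.6. Of 11 tendon markers 6 were called in soleus and 0 in quadriceps, summing to 637.8 to 811.6 against 297.2 and 134.3 CPM. Without soleus control 2 the count was 3. Comp, a cartilage and tendon matrix protein, stood at 31.7, 34 and 34.5 against 6.2 and 3.48 CPM (2.60, adjusted p = 8.2e-05).

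The direction of fibroblast and macrophage markers depended on which quadriceps library was used. Of 14 fibroblast markers 2 were called in soleus and 2 in quadriceps (1 and 4 under median-ratio scaling), with a median of -0.16. Without quadriceps control 2 the counts were 3 and 1 and the median 0.10, and without quadriceps control 1 they were 1 and 5 and -0.42. Without soleus control 1 the counts were 1 and 1, and without soleus control 2 they were 1 and 2. Ly6a was higher in soleus (1.03) and Smoc2 in quadriceps (-0.96). Of 12 macrophage markers 0 were called by limma or limma-voom in either direction and 1 had an unadjusted p under 0.05, higher in quadriceps. Under median-ratio scaling 1 was called in quadriceps. The median was -0.21, 0.33 without quadriceps control 2 and -0.75 without quadriceps control 1, where 2 were called in quadriceps. The sums overlapped, at 84 to 118.1 CPM in soleus and 88.1 and 194.4 CPM in quadriceps. Extracellular matrix genes had 18 of 39 called in soleus and 2 in quadriceps, and 11 and 3 under median-ratio scaling. Without quadriceps control 1 the counts were 10 and 1, without quadriceps control 2 they were 23 and 0, without soleus control 1 they were 12 and 0, without soleus control 2 they were 11 and 2, and without soleus control 3 they were 20 and 1. The soleus genes included biglycan (Bgn, 1.73), the basement membrane proteoglycan Hspg2 (1.18) and elastin (Eln, 1.46). Col3a1 (-0.68) was called in quadriceps, not without quadriceps control 2 or soleus controls 1 or 3. The part of vessel, nerve and tendon cells in the differences of genes that they share with muscle fibres was not tested.

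At the neuromuscular junction 10 of 19 genes were called in soleus and 2 in quadriceps, against 25.9% and 8.06% of all genes. Median-ratio scaling gave 7 and 2, against 12.8% and 14.4%. The quadriceps calls were thus near the share of all genes, and they numbered 1 without soleus controls 1 or 3. The median log2 difference of the list was 0.62, and 0.49 without quadriceps control 1. The acetylcholine receptor subunit Chrna1 stood at 55.5, 62.1 and 84.2 CPM in soleus and at 15.3 and 19.2 CPM in quadriceps (1.89, SE 0.19, adjusted p = 0.00019). Ncam1, an adhesion molecule of junctions and nerve, stood at 36.4, 36.2 and 36.8 against 4.51 and 12.2 CPM (2.14, adjusted p = 0.0041), and agrin (Agrn) differed by 1.14. Musk, the kinase that agrin activates through its receptor, went the other way, at 12.3, 8.32 and 10.5 against 34.9 and 31.7 CPM (-1.61, adjusted p = 0.00046).

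Membrane excitability genes were called in both directions, with 9 of 27 genes called in soleus and 7 in quadriceps, against 25.9% and 8.06% of all genes. Median-ratio scaling gave 9 and 9, against 12.8% and 14.4%. The sodium pump subunit Atp1b2 stood at 48.1, 44.3 and 42.8 CPM in soleus and at 406.4 and 252.5 CPM in quadriceps (-2.80, adjusted p = 4.7e-05). The potassium channel Kcnc4 was higher in quadriceps (-2.12), and Kcna5 (1.5), another potassium channel, was higher in soleus. The T-type calcium channel Cacna1h (2.01) was also higher in soleus, at a level of 8.04 to 9.73 CPM there. Secreted factors included osteocrin (Ostn), at 35.2, 25 and 43.8 against 3.66 and 4.68 CPM (2.76), Fgf1 (2.09) and Cxcl12 (1.67), all higher in soleus.

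Housekeeping groups had small differences, and for some the direction depended on the scaling. Shares of all genes, soleus then quadriceps, were 25.9% and 8.06% under CPM and 12.8% and 14.4% under median-ratio scaling. Of 79 cytosolic ribosomal protein genes 28 were called in soleus under CPM and 3 under median-ratio scaling, with 0 in quadriceps under either, by limma-voom or at an unadjusted p under 0.05. The soleus count was 6 without quadriceps control 1 and 14 to 16 without 1 of the soleus libraries. Those genes have many pseudogenes, so the split of their reads is uncertain. Of 61 ribosome biogenesis genes 5 were called in soleus and 3 in quadriceps, against 2 and 8 under median-ratio scaling, where the median turned from 0.15 to -0.14. Without quadriceps control 1 the counts were 2 and 0, without quadriceps control 2 they were 4 and 1, and without soleus controls 1, 2 and 3 in turn they were 3 and 0, 4 and 1, and 6 and 2. Of 34 proteasome genes 4 and 1 were called, against 0 and 7, and the median turned from 0.13 to -0.17. The soleus count was 0 without quadriceps control 1 or soleus control 1 and 2 without soleus control 3. Psme4, a proteasome activator, was higher in quadriceps in both scalings (-1.23, adjusted p = 0.00056). Chaperones leaned to soleus, with 17 of 33 called there and 3 in quadriceps (10 and 7 under median-ratio scaling). Without quadriceps control 1 the counts were 13 and 0, and without soleus controls 1, 2 and 3 in turn they were 9 and 0, 10 and 1, and 11 and 2. Bag3, which directs damaged filamin to autophagy, stood at 551.2, 533.2 and 479.3 CPM against 159.1 and 226.0 CPM (1.45, adjusted p = 0.00027), and its client filamin C (Flnc) differed by 1.66.

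The same contrast was made in the 6 Myc-labelled libraries, which share no sample with the controls and share the separate tables. There 3509 genes were called higher in soleus (29.1%) and 1043 higher in quadriceps (8.64%), 37.7% in either direction. Under median-ratio scaling the shares were 16.6% and 15.8%, 32.4% in all. Of the 3131 control genes called higher in soleus, 2424 (77.4%) were called in the same direction, which is 69.1% of the 3509, and 0 in the opposite one. Of the 974 called higher in quadriceps, 774 (79.5%) were called in the same direction, 74.2% of the 1043, and 1 in the opposite one. Heatr1, a ribosome biogenesis factor, was called in opposite directions: -0.85 in the controls, a call lost without quadriceps control 1 or soleus control 1, and 0.36 in the Myc-labelled libraries. Of the genes called at least 2-fold apart in the controls, 1092 of 1319 in soleus (82.8%) and 356 of 394 in quadriceps (90.4%) were called again. The difference between the 2 contrasts was tested gene by gene over all libraries with limma: 0 of 12078 genes passed. An unadjusted p under 0.05 was found for 367, a smaller share of the genes than the 0.05 that chance alone would give. The test takes 1 spread per gene from all groups together, and the quadriceps controls differ widely for slow-fibre genes. So small a share therefore cannot show that the 2 contrasts are alike. For the slow-fibre genes Myh7 and Tnnc1 the log2 differences were 10.62 and 9.17 in the Myc-labelled set and 3.35 and 3.26 in the controls.

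How far the soleus genes reached into each quadriceps library was measured with genes picked in the Myc-labelled libraries alone. There 29 genes were at least 16-fold higher in soleus and at least 20 CPM. In the controls their median level was 3.72% of the soleus mean in quadriceps control 1 (range 1.83% to 10.6%) and 28.1% in quadriceps control 2 (range 8.63% to 62.3%). In the Myc-labelled quadriceps libraries the medians were 0.654% and 2.4%, the values that chose them. In the opposite direction, 21 quadriceps genes picked in the same way had medians of 3.43%, 5.14% and 5.09% of the quadriceps mean in the 3 soleus controls, closer to one another than the 2 quadriceps medians above.

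**Figure D5:**
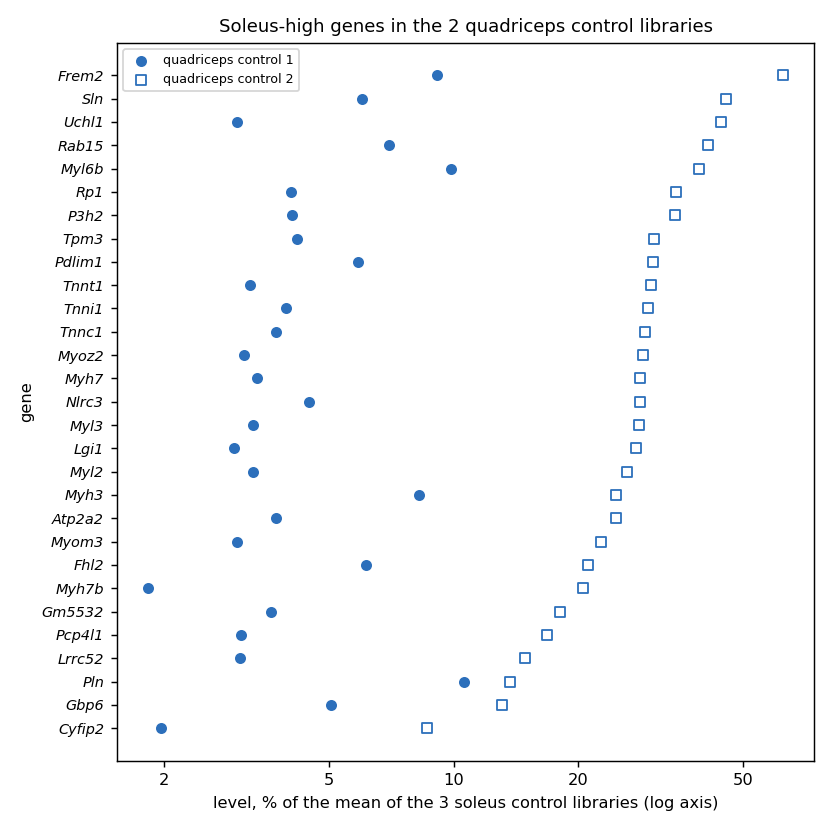
Level of 29 soleus-high genes, picked in the Myc-labelled libraries, in the 2 quadriceps controls, as a percentage of the mean of the 3 soleus controls on a log axis. Squares are quadriceps control 2, with a median of 28.1%, and dots are quadriceps control 1, with a median of 3.72%. The square lies right of the dot for each gene.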

How the data were processed

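The authors deposited, separately for each muscle, a scaled signal for every gene, that is, estimated reads over 1 size factor for each library. From the values, 90.9% to 93.4% of entries under 300 reads were whole multiples of 1 step per library (tolerance 0.02 of a read), so they are not raw counts and no count model was used. Partek, DESeq2, STAR 2.7.8a and the builds mm10 and mm39 appear, without roles, in the submitters' processing notes. Genes shared by the tables hold 99.77% to 99.95% of each library's signal. Each library was rescaled to CPM over them, and genes with at least 1 CPM in at least 2 of the 5 control libraries (12078, 50 failing) were fitted with limma 3.58.1 in R 4.3.3 on log2(CPM + 1), moderated robustly with an intensity trend. This understates differences of low genes. Adjustment was Benjamini-Hochberg over all genes. The design had allowed for a count test; the unit made limma the test. Scripts were tested on simulated data. Other scalings, filters, pseudocounts, limma-voom, a replicate block, 1 fit over all libraries and leaving out each library were tried.

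The members and the gene lists were chosen with earlier results of these data known. Named by rule: among called genes, the 15 widest differences per direction with a mean of at least 5 CPM in the higher muscle, no overlap and no clone or predicted name; up to 4 called members per list and direction with the smallest p; paired genes; and Myc. Of 51 lists, the mitochondrially encoded, lymphocyte and neutrophil lists had 0 genes in both tables. RefSeq promoters (GRCm38.p6) were matched by symbol, with 12071 of 12078 symbols found in the RefSeq gene table and 9631 with a promoter. Some genes of these lists are not reported here.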

Additional observations from a re-analysis of the deposited data

Results flagged for a closer look

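In the 4 Myc-labelled soleus libraries, Mrln (myoregulin) stood at 3.26, 3.36, 3.87 and 1.01 CPM, and on the log2(CPM + 1) scale the gap below the 3 higher libraries took 0.849 of the range. Of 43 such sets examined, chance alone flags about 1 in 20.

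Genes listed in 1 table only took no part in the comparison. The soleus table alone lists 993 genes, of which 693 averaged 1 CPM or more in the controls and 15 averaged 5 CPM or more. The highest, Apoa4, stood at 0, 6.594 and 42.74 CPM in soleus controls 1, 2 and 3, and the liver genes Cyp2d10 and Slc27a5 stood at 20.97 and 17.71 CPM in soleus control 2 and at 0 in the other 2. Olfr78, an odorant receptor gene also found in vessels, was even across the 3, at 10.84, 10.59 and 11.36 CPM. The quadriceps table alone lists 238 genes, of which 164 averaged 1 CPM or more and 19 averaged 5 CPM or more. Zbed6, a repressor of Igf2, stood at 47.43 and 46.25 CPM in quadriceps controls 1 and 2, the calcium-sensing receptor Casr at 40.39 and 21.55 CPM, and the potassium channel subunit Kcnf1 at 18.65 and 23.45 CPM.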

How the results depend on the processing

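Scaling and the choice of libraries both moved the counts of called genes. In the controls the genes higher in soleus and in quadriceps numbered 1617 and 1662 on the values as deposited, 1544 and 1743 with median-ratio scaling and 1804 and 1467 with upper-quartile scaling. In the Myc-labelled libraries the counts were 2093 and 1822, 2002 and 1908, and 2244 and 1728. Leaving out 1 library gave 1427 to 3082 and 495 to 884 genes in the controls, lowest without quadriceps control 1, and 1999 to 3569 and 701 to 953 in the Myc-labelled libraries. Other filters, pseudocounts, no robust moderation, limma-voom and 1 fit over all libraries kept each count within 1.5 times. So did 2 settings chosen after seeing the data: Rn18s left out of the total (2673 and 1054) and both quadriceps control 2 and soleus control 2 left out (2516 and 742).

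Titles share replicate numbers across muscles. Deviations of same-numbered libraries correlated at 0.18 and 0.24 over 12041 genes, but no label says that a number marks 1 animal, so the samples share only a number. A replicate block gave 2800 and 887 genes in the controls and 2319 and 629 in the Myc-labelled libraries.

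Of 269 named genes, 0 called ones reversed direction under the alternatives run, and 84 lost their call under at least 1. Of 48 list medians 13 changed sign under at least 1 alternative, 10 of them under another scaling and 5 on leaving out libraries. Where the value had been larger than the spread between libraries, 4 lists turned negative, all under another scaling: shared sarcomere genes (-0.02, median-ratio), fibre-type transcription factors (-0.05 as deposited, -0.08 median-ratio), ribosome biogenesis (-0.12, -0.14 and, with upper-quartile scaling, -0.06) and proteasome (-0.15, -0.17 and -0.09). The adipocyte median went from 0.29 to -0.59 without quadriceps control 1, and the cause was not tested. Depth (11.1 to 18.4 in units of 1000000 reads) limits genes near 1 CPM, and 2 quadriceps libraries limit those in which they differ.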

Other observations

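Immediate-early and stress genes had 10 of 27 called higher in soleus and 2 in quadriceps, against 25.9% and 8.06% of all genes. Median-ratio scaling gave 9 and 3, against 12.8% and 14.4%. The quadriceps calls were thus no more frequent than over all genes, and they numbered 1 without soleus controls 1 or 2. The median log2 difference of the list was 0.63, 0.55 without quadriceps control 1 and 0.93 without quadriceps control 2. Ccn2, a matrix-associated growth factor responsive to load, stood at 137.6, 150.1 and 209.6 CPM in soleus and at 26.1 and 38.7 CPM in quadriceps (log2 difference 2.32, adjusted p = 0.00039), and the metal-binding Mt1 differed by 1.63. Nr4a1 was higher in quadriceps (-1.92), a call lost without quadriceps control 1. Of 18 circadian clock genes 4 were called in soleus, with Per1 at 149.6, 141.3 and 157.5 against 70.7 and 72.4 CPM (1.05, adjusted p = 0.00032) and Ciart at 1.16, and 1 in quadriceps, Rora (-1.99), against 25.9% and 8.06% of all genes. Under median-ratio scaling 2 and 3 were called and the median turned from 0.06 to -0.24, and without quadriceps control 2 or soleus control 2 the quadriceps count was 2. The satellite cell markers Sdc4 (1.48) and Spry1 (1.08) were higher in soleus. Pax7, which defines satellite cells, stood at 6.81, 8.24 and 4.42 against 1.97 and 3.16 CPM (1.06, adjusted p = 0.028), a call lost under median-ratio scaling (adjusted p = 0.068) and without quadriceps control 1 or soleus controls 1 or 2. Of 7 satellite cell markers 5 were called in soleus, 2 under median-ratio scaling, 2 without quadriceps control 1 or soleus control 2 and 3 without soleus control 1.

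Some lists had other counts in the Myc-labelled libraries, a difference between lists that was not tested. Of 6 erythroid genes 5 were called higher in soleus in the controls and 0 in the Myc-labelled libraries. The other erythroid gene, Bpgm, was called higher in quadriceps in both sets (log2 difference -0.92 and -1.30). Of 11 tendon markers 6 and 1 were called higher in soleus, and of 61 ribosome biogenesis genes 5 and 48. The shares of all genes called higher in soleus were 25.9% in the controls and 29.1% in the Myc-labelled libraries.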
